A study of Mus musculus with 9 samples.

Results

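CircRNAs from 6 host genes grouped under synaptic membranes and vesicles were followed in RNA recovered with the neuronal RNA-binding protein HuD from mouse striatum. The genes were Dnm1, Lppr4, Magi1, Ntrk3, Rab30 and Tspan7. Their circRNAs were taken as every probe that carried 1 of these gene symbols in the authors' lists of circRNAs higher in HuD RIP. This gave 10 probes out of 737 named probes and 14330 non-control probes on the array. They were chosen by the measured signals of HuD RIP against its controls. Their differences from those controls are therefore only described, and calls among them are not read as a result. Of the 10, 4 were in both lists, 5 were in the list against IgG RIP alone and 1 was in the list against WT RIP alone.

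RNA immunoprecipitation (RIP) was followed by hybridization of the recovered RNA to 9 one-colour circRNA arrays, with 3 arrays per group. In HuD RIP, an anti-myc tag antibody (9B11) was applied to adult striatum of HuD-OE mice, which carry myc-tagged HuD under the Camk2a promoter on a C57BL/6J background. In WT RIP, the same antibody was applied to wild-type striatum, which has no tagged protein. IgG RIP is named as titled: its labels give the anti-myc antibody, whereas the methods of the study describe non-immune IgG on HuD-OE tissue. The methods describe tissue of 3 mice pooled for each immunoprecipitation, and p-values measure only the spread between these separate assays, which may be partly technical. The transgene promoter is active mainly in forebrain principal neurons, so tagged HuD need not be present in every striatal cell. In such bulk samples, fewer cells of a type and less RNA per cell cannot be told apart, and the input RNA was not analysed here.

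CircRNAs form when a downstream splice donor joins an upstream acceptor, which leaves a closed loop without the ends that exonucleases attack. They are abundant in brain, and many come from genes that encode synaptic proteins. HuD (ELAVL4) is a neuronal member of the Hu/ELAV family, which binds AU-rich and U-rich stretches in RNA. The host genes encode proteins with different roles, not all of them at the synapse. Dynamin 1 (Dnm1) pinches off endocytic vesicles at nerve terminals, RAB30 is a small GTPase of the Golgi and its traffic, and TSPAN7 is a tetraspanin of the plasma membrane that affects AMPA receptor traffic. Lppr4, now named Plppr4, encodes plasticity-related gene 1, a phosphatase-like membrane protein of glutamatergic synapses. MAGI1 is a membrane-associated guanylate kinase scaffold, and Ntrk3 encodes TrkC, the receptor of neurotrophin-3.

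The probe sequences of the genes with more than 1 circRNA are shown because they are what tells the circRNAs of a gene apart. Each is the 60-base junction sequence from the authors' tables, 5′ to 3′, in which capitals mark the motif ATTTA or TTTTT. For Tspan7 mmu_circRNA_45337, which has the largest fold changes of the 10, only bases 11 to 40 of the 60 are shown.

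Dnm1 mmu_circRNA_006320: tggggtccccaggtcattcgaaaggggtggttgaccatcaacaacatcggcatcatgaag
Dnm1 mmu_circRNA_33286: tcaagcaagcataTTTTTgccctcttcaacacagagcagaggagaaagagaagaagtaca
Lppr4 mmu_circRNA_36027: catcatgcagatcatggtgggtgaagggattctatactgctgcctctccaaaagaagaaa
Lppr4 mmu_circRNA_36029: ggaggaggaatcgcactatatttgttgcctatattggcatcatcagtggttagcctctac
Tspan7 mmu_circRNA_004325: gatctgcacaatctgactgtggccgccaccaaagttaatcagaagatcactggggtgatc
Tspan7 mmu_circRNA_45336: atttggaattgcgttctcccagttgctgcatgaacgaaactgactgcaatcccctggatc
Tspan7 mmu_circRNA_45337: acctcatcagatcaATTTAaaaatgggtgt

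Probes of the same gene had little sequence in common. The longest run shared between 2 probes of a gene was 7 bases, for Tspan7 mmu_circRNA_004325 and mmu_circRNA_45336. The circRNAs themselves can share sequence, because some of their spans overlap. The 0.11 kb span of Dnm1 mmu_circRNA_33286 lay wholly inside the 8.49 kb span of mmu_circRNA_006320. The spans of both Lppr4 circRNAs overlapped by 5.99 kb, and those of Tspan7 mmu_circRNA_004325 and mmu_circRNA_45336 by 79 bases.

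An AU-rich motif (ATTTA), a run of T (TTTTT) and a GU-rich motif (TGTTT) were searched in the 60 bases on both strands. As printed, ATTTA was found in Tspan7 mmu_circRNA_45337 alone and in 5.29% of the 737 named probe sequences. TTTTT was found in Dnm1 mmu_circRNA_33286 alone and in 3.66% of the named sequences, and TGTTT in none of the 10 and in 6.38% of the named sequences. On the other strand, ATTTA was read in Rab30 mmu_circRNA_41891 and in 3.80% of the named sequences. TTTTT was read there in Tspan7 mmu_circRNA_45337, where it overlaps the ATTTA motif, and in 8.41% of the named sequences. TGTTT was read there in none of the 10 and in 10.2% of the named sequences. These windows cover only the junction, so the rest of each circRNA was not searched.

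Positions are given as the authors' tables list them. The build is not named there. Of the 687 named circRNAs whose transcript matched RefSeq on the same chromosome, 685 lay inside that gene on GRCm38.p6, and all 10 circRNAs described here lay inside their host gene. Whether starts count from 0 or from 1 is not stated. The Dnm1 circRNAs, both exonic, were at chr2:32312126-32320617 for mmu_circRNA_006320 and chr2:32316897-32317007 for mmu_circRNA_33286, on the minus strand. On the minus strand of chromosome 3, Lppr4 mmu_circRNA_36027 (sense overlapping) was at chr3:117322466-117331777 and mmu_circRNA_36029 (exonic) at chr3:117325789-117335591. Magi1 mmu_circRNA_40577 (exonic) was at chr6:93745433-93792553 and Ntrk3 mmu_circRNA_41725 (intronic) at chr7:78229486-78260414, both on the minus strand. Rab30 mmu_circRNA_41891 (exonic) was at chr7:92819982-92829709 on the plus strand. The Tspan7 circRNAs, on the plus strand, were at chrX:10579314-10585652 for mmu_circRNA_004325 (exonic), chrX:10585573-10590219 for mmu_circRNA_45336 and chrX:10596275-10596461 for mmu_circRNA_45337 (both sense overlapping). Exonic circRNAs made up 6 of the 10, against 87.4% of the named circRNAs, and sense overlapping ones 3 of the 10, against 9.23%.

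The tables name 5 microRNAs with predicted elements in each circRNA, 48 different microRNAs over the 10. Of these, 40 matched a mature mouse sequence in RefSeq (GRCm38.p6). Those shared by 2 of the circRNAs, and those with a complement of the seed in the junction sequence, are shown with the seed (bases 2 to 8) in capitals.

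mmu-miR-5110: gGAGGAGGuagagggugguggaauu
mmu-miR-1958: uAGGAAAGuggaagcaguaagu
mmu-miR-300-5p: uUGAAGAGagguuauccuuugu
mmu-miR-7227-5p: uCUGAUGAcuuuuucauuga

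The elements of miR-5110 were listed for Lppr4 mmu_circRNA_36027 and Ntrk3 mmu_circRNA_41725, and for 3.26% of the named circRNAs. Those of miR-1958 were listed for Lppr4 mmu_circRNA_36027 and Tspan7 mmu_circRNA_45337, and for 3 of the 737 in all. The complement of the miR-300-5p seed, CTCTTCA, was in the junction sequence of Dnm1 mmu_circRNA_33286 and in 1.76% of the named sequences. The complement of the miR-7227-5p seed, TCATCAG, was in that of Tspan7 mmu_circRNA_45337, for which this microRNA is listed, and in 0.407% of the named sequences. It was also in that of Lppr4 mmu_circRNA_36029, for which this microRNA is not listed. These are matches of letters and not measured binding.

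The arrays differed in brightness along with the groups. Before scaling, the 75th percentile of the log2 signal over all probes lay between 3.49 and 5.46 on the HuD RIP arrays. It lay between 2.35 and 3.51 for WT RIP, and for IgG RIP between 2.04 and 2.42. Its mean was 4.39 ± 0.998 (SD, n = 3) in HuD RIP and 2.89 ± 0.58 (SD, n = 3) in WT RIP (exact two-sided permutation test, p = 0.2). Against 2.17 ± 0.22 (SD, n = 3) in IgG RIP the exact permutation test gave p = 0.1, the smallest p that 3 arrays against 3 allow. Probes well above background made up 43.7% or more of all probes on every HuD RIP array, 44.6% or less on every WT RIP array and 26.3% or less on every IgG RIP array. Of 11 striatal neuron markers, Arpp21 and Bcl11b had a named probe, and all of these were well above background on the 3 HuD RIP arrays. Only probes that the authors listed as higher in HuD RIP carry a name, so high HuD RIP signals of named markers follow from that choice. The astrocyte marker Slc1a2 was well above background on all 9 arrays, with a mean scaled signal (log2, as defined below) of 0.68 in HuD RIP, -0.79 in WT RIP and -0.84 in IgG RIP. The oligodendrocyte marker Mbp had no named circRNA probe. Its values are from a probe for linear mRNA, which is an unlike measure, since linear RNA was removed with RNase R. That probe was well above background on 7 arrays, with -1.09 in HuD RIP, -3.24 in WT RIP and -1.77 in IgG RIP. The brightest Arpp21 probe had 3.09 in HuD RIP, -1.57 in WT RIP and -1.32 in IgG RIP. No microglial marker had a named probe. The part of other cell types in the results was not tested.

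Signals below are log2 units relative to the 75th percentile of each array over the 2594 probes well above background on all 9 arrays, so 0 is that percentile. Values of the replicates are given in the order 1, 2 and 3. Fold changes are from 1 limma fit over all 6871 tested probes, with their standard error (SE), and the number of arrays limits their precision. All 10 circRNAs passed the filter and were well above background on the 3 HuD RIP arrays. That filter can be passed through the HuD RIP arrays alone.

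**Figure D1:**
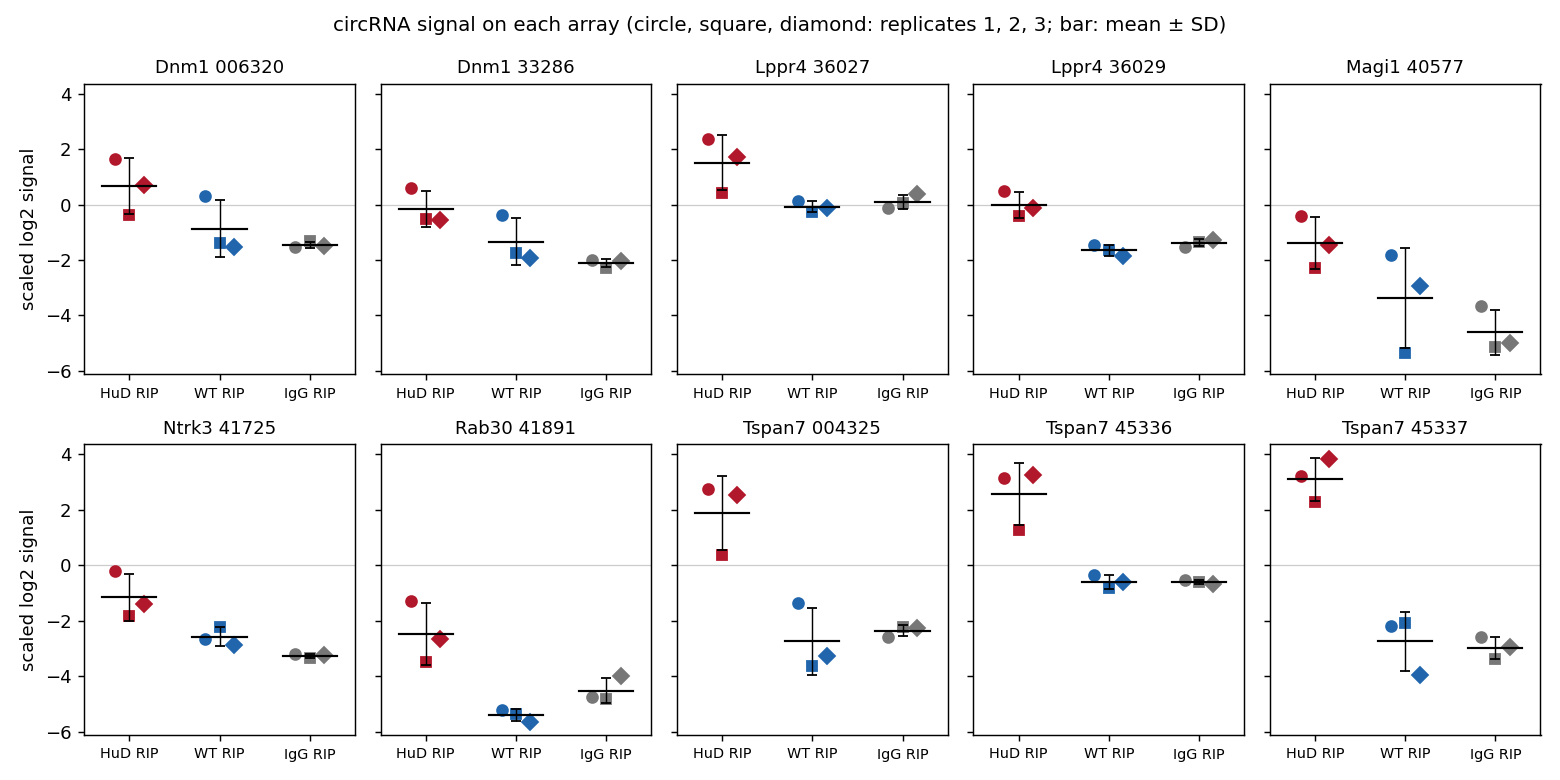
Scaled log2 signal (y axis) of each of the 10 circRNAs in HuD RIP (red), WT RIP (blue) and IgG RIP (grey), with a circle, square and diamond for replicates 1, 2 and 3, and a bar for the mean ± SD (n = 3). All HuD RIP arrays lie above all IgG RIP arrays in every panel, and replicate 2 is the lowest HuD RIP array for 9 of the 10 circRNAs.

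The Tspan7 circRNAs had the largest log2 fold changes over both controls among the circRNAs measured there, leaving aside those that were only bounded. The signal of mmu_circRNA_45337 was 3.20, 2.29 and 3.83 in HuD RIP, -2.18, -2.10 and -3.96 in WT RIP, and -2.59, -3.40 and -2.94 in IgG RIP. Every HuD RIP array was above every control array, and replicate 3 was the highest. Fitted log2 fold changes were 5.85 (SE 0.58) over WT RIP and 6.09 (SE 0.58) over IgG RIP, which is 57.9-fold and 68.0-fold. They depended on the processing, with 3.33 and 3.15 under normexp and 4.15 and 4.20 in the authors' normalized values. Only 2 of the WT RIP arrays and 1 of the IgG RIP arrays were well above background for this probe. It ranked 3 of the 737 named probes by the smaller of both fold changes.

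Tspan7 mmu_circRNA_004325, from an upstream part of the gene, gave 2.75, 0.36 and 2.55 in HuD RIP, -1.35, -3.62 and -3.27 in WT RIP, and -2.57, -2.24 and -2.25 in IgG RIP. Replicate 2 of HuD RIP was over 2 log2 units below the other HuD RIP arrays, yet it was still above all control arrays. Over both controls the log2 fold changes were 4.63 (SE 0.74) over WT RIP and 4.24 (SE 0.74) over IgG RIP. In WT RIP, 2 of the 3 arrays were well above background. Under normexp these fold changes were 2.11 and 1.95.

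Tspan7 mmu_circRNA_45336 gave 3.16, 1.28 and 3.26 in HuD RIP, -0.34, -0.83 and -0.62 in WT RIP, and -0.52, -0.60 and -0.66 in IgG RIP. It was well above background on all 9 arrays. The HuD RIP arrays were above all control arrays, while both control groups overlapped. Its log2 fold change was 3.16 over WT RIP and 3.16 over IgG RIP (SE 0.50 for both), about 8.95-fold and 8.96-fold. The probes of Tspan7 moved together over the 9 arrays, with Pearson's r of 0.94 to 0.98. These coefficients span arrays of different groups and brightness and describe the 9 arrays alone.

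The Dnm1 circRNAs overlapped with WT RIP. The signal of mmu_circRNA_006320 was 1.65, -0.38 and 0.72 in HuD RIP, 0.31, -1.38 and -1.55 in WT RIP, and -1.54, -1.32 and -1.51 in IgG RIP. WT RIP replicate 1 was above HuD RIP replicate 2, whereas all HuD RIP arrays were above all IgG RIP arrays. The log2 fold change was 1.53 (SE 0.61) over WT RIP and 2.12 (SE 0.61) over IgG RIP.

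The shorter Dnm1 mmu_circRNA_33286 gave 0.60, -0.53 and -0.56 in HuD RIP, -0.37, -1.74 and -1.91 in WT RIP, and -2.001, -2.29 and -2.04 in IgG RIP. WT RIP replicate 1 was above replicates 2 and 3 of HuD RIP. Its log2 fold change was 1.18 (SE 0.47) over WT RIP, the smallest fitted value of the 10, and 1.95 (SE 0.47) over IgG RIP. Both Dnm1 probes were well above background on all 9 arrays.

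The Rab30 circRNA was dim in the controls. Its signal was -1.28, -3.48 and -2.66 in HuD RIP, -5.22, -5.37 and -5.64 in WT RIP, and -4.74, -4.83 and -3.99 in IgG RIP. The HuD RIP arrays were above all controls, but no WT RIP or IgG RIP array was well above background. Its difference is therefore only bounded, at least 2.22-fold over WT RIP and at least 1.40-fold over IgG RIP. Such a bound sets the mean of HuD RIP against the lowest signal well above background on each control array, or the probe's own signal where that was higher. With another background correction, normexp with an offset of 50, its fitted difference from IgG RIP was below 0, at -0.17. The median over all tested probes was then lower, at -0.38.

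The Lppr4 circRNAs had nearly equal levels in both controls. The signal of mmu_circRNA_36029 was 0.51, -0.41 and -0.11 in HuD RIP, -1.45, -1.65 and -1.87 in WT RIP, and -1.53, -1.35 and -1.28 in IgG RIP. No control array reached the lowest HuD RIP array, and all 9 arrays were well above background. This gave log2 fold changes of 1.65 (SE 0.30) over WT RIP and 1.38 (SE 0.30) over IgG RIP, with the smallest SE of the 10 circRNAs.

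Lppr4 mmu_circRNA_36027 gave 2.38, 0.43 and 1.71 in HuD RIP, 0.13, -0.27 and -0.11 in WT RIP, and -0.14, 0.05 and 0.37 in IgG RIP. The lowest HuD RIP array, replicate 2, was only just above IgG RIP replicate 3. The log2 fold change was 1.59 (SE 0.46) over WT RIP and 1.41 (SE 0.46) over IgG RIP. It was well above background on all 9 arrays.

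The scaffold gene Magi1 gave the most variable circRNA. The signal of mmu_circRNA_40577 was -0.43, -2.30 and -1.46 in HuD RIP, -1.84, -5.37 and -2.94 in WT RIP, and -3.67, -5.13 and -5.01 in IgG RIP. The SD was 1.81 in WT RIP, where replicate 1 was above HuD RIP replicate 2 and only 2 arrays were well above background. The WT RIP replicate 2 signal, -5.37, was the same as that of Rab30 there, which was not well above background. HuD RIP was 1.99 log2 units (SE 0.88) above WT RIP, and 0.995 without WT RIP replicate 2. That difference was 0.21 with normexp and -0.29 with array brightness as a covariate, beside medians of -0.22 and -0.01 over all tested probes. No IgG RIP array was well above background, and the difference was at least 2.96-fold over IgG RIP.

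The circRNA of the neurotrophin receptor gene Ntrk3, mmu_circRNA_41725, was the only intronic one. Its signal was -0.21, -1.84 and -1.39 in HuD RIP, -2.65, -2.21 and -2.87 in WT RIP, and -3.20, -3.35 and -3.25 in IgG RIP. The groups were separate, and every WT RIP array lay between the HuD RIP and the IgG RIP arrays. The log2 fold change over WT RIP was 1.43 (SE 0.41). No IgG RIP array was well above background, so HuD RIP was at least 3.51-fold above IgG RIP.

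Over the 10 circRNAs, the median log2 fold change was 1.82 over WT RIP and 2.12 over IgG RIP, beside 0.35 and 0.52 over all tested probes. With the bounded differences (1 over WT RIP and 3 over IgG RIP) set to their bounds, it was 1.62 and 1.88. The fit called 7 of the 10 higher than WT RIP at an adjusted p under 0.05, beside 15% of all tested probes. It called 9 higher than IgG RIP, beside 22%, and 6 higher than both, beside 13.3%. Lppr4 mmu_circRNA_36027 and Ntrk3 were only just under that threshold against WT RIP. Against IgG RIP, Lppr4 mmu_circRNA_36027 was only just over it. All HuD RIP arrays were above all WT RIP arrays for 7 of the 10, beside 21.7% of all tested probes. They were above all IgG RIP arrays for 10 of the 10, beside 34.8%. For 7 they were above all 6 control arrays, beside 19.5%. Since the choice of the circRNAs used these contrasts, nothing is read from these counts. Both comparisons share the HuD RIP arrays.

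Apart from those of Tspan7, the ranked circRNAs were low among the named probes. The median log2 fold change of all 737 named probes was 2.87 over WT RIP and 2.98 over IgG RIP. By the smaller of both fold changes, Tspan7 mmu_circRNA_004325 ranked 75 and mmu_circRNA_45336 ranked 234. Those of Dnm1, Lppr4, Magi1 and Ntrk3 ranked between 583 and 713 of the 737 by fitted values, and Rab30, which was only bounded, was given no rank. Against WT RIP, the lowest of the 5 listed circRNAs was Lppr4 mmu_circRNA_36027, at 1.59. Of the 5 that were not listed, Dnm1 mmu_circRNA_33286 was the lowest at 1.18 and Magi1 was at 1.99, while Rab30 was only bounded. Against IgG RIP, the lowest listed value was 1.38 for Lppr4 mmu_circRNA_36029, and the circRNA not listed, Lppr4 mmu_circRNA_36027, had 1.41.

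**Figure D2:**
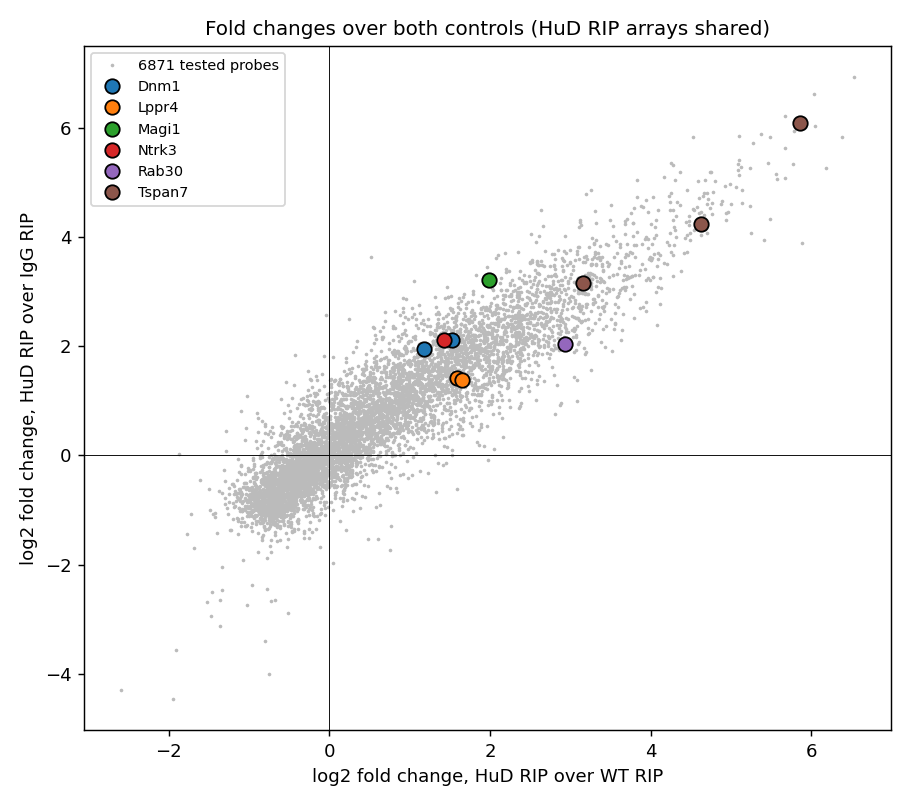
Log2 fold change of HuD RIP over WT RIP (x axis) and over IgG RIP (y axis) for the 6871 tested probes (grey) and the 10 circRNAs (coloured by host gene). The axes share the HuD RIP arrays, and Tspan7 mmu_circRNA_45337 lies at 5.85 and 6.09 while those of Dnm1, Lppr4, Magi1 and Ntrk3 lie between 1.18 and 1.99 over WT RIP. Rab30 (both axes) and Magi1 and Ntrk3 (y axis) are drawn at fitted values although only a bound was measured.

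The scaling moved these values. With the 75th percentile over all probes in place of the probes well above background on all 9 arrays, the median over all tested probes shifted to -0.36 against WT RIP and -0.29 against IgG RIP. The median of the 10 then became 1.11 and 1.30, and 4 instead of 7 were called higher than WT RIP. Relative to the median of all tested probes, it was 1.47 over WT RIP and 1.59 over IgG RIP, which such a scaling cannot change because it subtracts 1 constant per array. Over all tested probes, 1033 were called higher and 34 lower than WT RIP, against 850 and 754 with the percentile over all probes. Against IgG RIP these were 1509 and 363, and 974 and 1477.

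Array brightness moved with the groups, and the fold changes were smaller with it as a covariate. The median of the 10 was then 0.86 over WT RIP and 0.41 over IgG RIP, and 1 and 0 of the 10 were called higher. Over all 6871 tested probes, the medians were -0.01 and -0.02. Those called higher were 246 and 61, against 1033 and 1509 in the main fit. With the covariate, Dnm1 mmu_circRNA_006320 was at -0.30, Lppr4 mmu_circRNA_36027 at -0.21 and Magi1 at -0.17 against IgG RIP. Against WT RIP, Dnm1 mmu_circRNA_006320 was then at -0.10 and Magi1 at -0.29. Leaving out IgG RIP replicate 1 or replicate 2 reduced the circRNAs called higher than IgG RIP from 9 to 5. Over all 6871 tested probes, the calls fell from 1509 to 817 and 786.

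**Figure D3:**
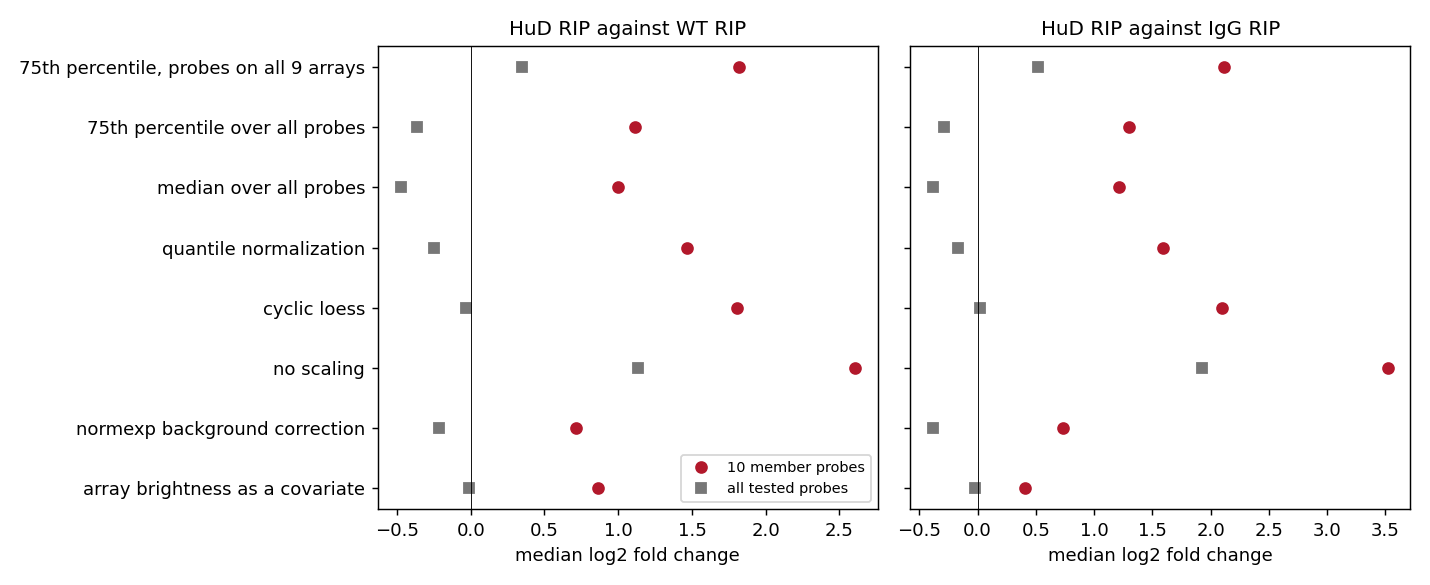
Median log2 fold change (x axis) of the 10 circRNAs (red circles) and of all tested probes (grey squares) under different scalings and corrections (y axis), over WT RIP (left) and over IgG RIP (right). The median of the 10, which were chosen by these contrasts, runs from 0.72 with normexp to 2.61 without scaling over WT RIP.

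The comparison of WT RIP with IgG RIP was not used to choose the circRNAs, although the choice favoured low values in the controls. None of the 10 differed between the controls at an adjusted p under 0.05 in limma, and 0 had an unadjusted p under 0.05. Over all tested probes, 0 were higher and 1 was lower in WT RIP (0.0146%), and 6.51% had an unadjusted p under 0.05 in either direction. The median log2 difference of the 10 was 0.12, beside 0.06 for all tested probes.

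Rab30, Magi1 and Ntrk3 were well above background on none of the IgG RIP arrays, so their differences between the controls are not given. For the other 7 circRNAs they ranged from -0.39 for Tspan7 mmu_circRNA_004325 to 0.77 for Dnm1 mmu_circRNA_33286. The latter had a 95% confidence interval of -0.31 to 1.85 (limma, adjusted p = 0.939). That of Tspan7 mmu_circRNA_45336 was 0.00, with an interval of -1.13 to 1.13 (limma, adjusted p = 0.9998). That of Lppr4 mmu_circRNA_36029 was -0.27, with the narrowest interval, -0.94 to 0.40 (limma, adjusted p = 0.987). For Dnm1 mmu_circRNA_33286 and Ntrk3, all WT RIP arrays were above all IgG RIP arrays, as for 8.19% of all tested probes. For Rab30 all were below, as for 8.67%, although no control array was well above background there. By the methods' t-test at an unadjusted p under 0.05 and over 1.5-fold, Ntrk3 (higher in WT RIP) and Rab30 (lower in WT RIP) were called between the controls, beside 6.07% of all tested probes, and after Benjamini-Hochberg adjustment 0 were.

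Replicates of HuD RIP varied in a shared way. Replicate 2 was the lowest HuD RIP array for 9 of the 10 circRNAs, and replicate 1 was the highest for 8. In WT RIP, replicate 1 was the highest for 8 of the 10. Over the 45 pairs of the 10 circRNAs, Pearson's r over the 9 arrays was 0.65 to 0.98, with a median of 0.87. The arrays of both controls and of HuD RIP, and their brightness, are common to all of these points.

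The named circRNAs of other genes with the most similar pattern over the 9 arrays were Fam3c and Setd7 for Tspan7 mmu_circRNA_45337, with Pearson's r of 0.99 for both. Those of Atp1b1 and Mmd, with r of 0.99 for both after rounding, were the most similar to Tspan7 mmu_circRNA_004325. Tspan7 mmu_circRNA_45336 was most like those of Tnpo2 and Ptn (0.99 for both). Lppr4 mmu_circRNA_36027 was most like circRNAs of Gabrb2, a GABA-A receptor subunit (0.99), and Nptn, an adhesion molecule (0.98), and Lppr4 mmu_circRNA_36029 like those of Kpna1 and Cnot7 (0.99 for both). For Dnm1, these were Uba6 and Sorbs2 (0.99 for both) and, for mmu_circRNA_33286, Foxk2 and Adap1 (0.98 for both). Magi1 was most like Rere and Camk4 (0.99 for both), Ntrk3 like Tmod2 (0.99) and Gnai1 (0.97), and Rab30 like Sdf4 and Mib1 (0.99 for both). With 737 probes to choose from and 9 arrays, high coefficients are common.

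Other genes of the synapse and of membrane traffic were read from 6 lists of 150 genes, of which 50 had a named probe. A name exists only for probes that the authors listed as higher in HuD RIP, so the counts describe listed probes and cannot show how the lists as a whole moved. Of all 737 named probes, 80.3% were called higher than WT RIP and 93.6% higher than IgG RIP, and the counts below are to be read beside these shares. Of 8 probes of endocytosis and vesicle recycling genes, 6 were called higher than WT RIP and 8 higher than IgG RIP. Aak1, a kinase of clathrin adaptors, had a log2 fold change of 3.23 over WT RIP and 3.29 over IgG RIP, Sh3gl3 (an endophilin) 3.56 and 2.77. Cltc, the clathrin heavy chain, had 2.69 over WT RIP and did not reach well above background in IgG RIP. Of 16 probes of vesicle fusion and active zone genes, 10 and 13 were called.

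Of 10 probes of Rab GTPases and their partners, 9 were called higher than WT RIP and 10 higher than IgG RIP. Rab6a mmu_circRNA_41995 was 5.67 log2 units above WT RIP. Of 18 probes of membrane-associated guanylate kinases and postsynaptic scaffolds, 14 and 16 were called. Among them Dlg4, which encodes PSD-95, was 4.74 above WT RIP. Of 13 probes of neurotrophin receptor and synaptic adhesion genes, 10 and 12 were called, and Nrxn2 (neurexin 2) was 3.63 above WT RIP and 3.52 above IgG RIP. The list of other tetraspanins and plasticity-related proteins had 4 probes, all called higher than both controls. They came from Tspan13, a tetraspanin, and from Gpm6a, a proteolipid-family glycoprotein that belongs to neither group, whose mmu_circRNA_42901 was 5.10 above WT RIP and 5.85 above IgG RIP. The probes of Aak1, Cltc, Rab6a, Dlg4, Nrxn2 and Gpm6a whose values are given were well above background on only 1 WT RIP array. Those of Aak1, Nrxn2 and Gpm6a were so on only 1 IgG RIP array, and that of Sh3gl3 on 2 arrays of each control. No probe of the 6 lists was called lower than either control, but only probes listed as higher in HuD RIP carry a name.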

How the data were processed

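Groups and replicate numbers followed the sample labels. The authors' service provider removed linear RNA with RNase R, labelled the rest with Cy3 and carried out the hybridization. Per the file headers, the deposited intensity values came from Feature Extraction 11.0.1.1, with background subtracted and no normalization between arrays. The authors' deposited tables give normalized log2 values, by a method not stated, together with p-values, false discovery rates and fold changes that were not used, and 12 further columns of raw values per sample were not used. The submitters' processing notes name limma.

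Outlier spots were dropped, spots of a probe were averaged as log2 intensity, and the 75th percentile over the 2594 probes well above background on all 9 arrays was subtracted. A probe was well above background where at least 0.5 of its spots were, and 6871 probes so marked on at least 3 arrays were tested. In R 4.3.3, limma 3.58.1 (lmFit, eBayes) fitted 1 mean per group to all 9 arrays (6 residual and 2.72 prior degrees of freedom), with Benjamini-Hochberg adjustment over the tested probes and calls at 0.05. Confidence intervals are from this fit. Exact permutation tests used scipy 1.17.1. The fit was tested on simulated data.

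The members, lists and scaling were chosen with earlier results of these data known, and an earlier analysis used the percentile over all probes. Named were all members, the 2 named probes of other genes most correlated with each, and up to 3 probes per list with the largest smaller fold change. Alternatives covered the scaling, background correction, filter, samples, blocks and test, and 1 more, the authors' normalized log2 values, was chosen after seeing the data. Where the junction lies in each sequence was not determined.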

Additional observations from a re-analysis of the deposited data

How the results depend on the processing

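The called differences that reversed were Dnm1 mmu_circRNA_006320 at -0.30 and Magi1 at -0.17 against IgG RIP with array brightness as a covariate, and Rab30 at -0.17 with normexp. Over all tested probes, the medians against IgG RIP were -0.02 with brightness and -0.38 with normexp. The cause of these reversals was not tested.

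The count called higher than WT RIP, 7 of 10, was 4 with the 75th percentile over all probes, 4 with the median over all probes, 3 with normexp, 2 of the 5 circRNAs left by a filter on all 9 arrays, 1 with brightness as a covariate and 0 by the methods' t-test after Benjamini-Hochberg adjustment. Without 1 replicate it was 5 to 8. Over all 6871 tested probes, 1033 were called higher than WT RIP in the main fit. These were 850 with the percentile, 864 with the median, 130 with normexp and 246 with brightness. They were 476 to 1720 without 1 replicate, and 94 of the 2594 probes left by the filter. The t-test count over all tested probes is not given here. The count called higher than IgG RIP, 9 of 10, was 5 with the median over all probes, 5 of the 5 left by the filter, 0 with brightness and 1 by the adjusted t-test. Without 1 replicate it was 5 to 10. Over all tested probes, 1509 were called higher than IgG RIP in the main fit, 926 with the median and 61 with brightness. They were 628 to 2133 without 1 replicate, and 219 of the 2594 probes left by the filter. Between the controls, 0 became 2 by the methods' t-test unadjusted, beside 6.07% of all tested probes, and stayed 0 without any 1 replicate.

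The median over WT RIP, 1.82, was 1.11 with the percentile and 0.999 with the median over all probes, 2.61 without scaling, 0.72 with normexp, 0.75 with uncorrected signals after quantile normalization, 2.74 with the row of the slide as a block and 0.86 with brightness. The median over IgG RIP, 2.12, was 1.30, 1.21, 3.52, 0.73, 0.90 and 0.41 under the same settings without the row block, and 0.97 with the authors' normalized values of 9 circRNAs. Between the controls, it was -0.89 with the row block. The row was nearly confounded with the groups. All WT RIP arrays and HuD RIP replicate 1 were in row 1, and all other arrays were in row 2. With the row block, the difference from WT RIP therefore rested on HuD RIP replicate 1 alone. The difference between the controls rested on that between the HuD RIP arrays of both rows. Neither value is read as adjusted for the row.

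With the replicate block, 9 were called higher than WT RIP, 10 higher than IgG RIP and 0 between the controls. Over all 6871 tested probes, 1527 and 2004 were then called higher, against 1033 and 1509 in the main fit. Same-numbered arrays of HuD RIP and WT RIP had residual correlations of 0.65, 0.56 and -0.10, which also hold differences in brightness. Whether the numbers pair the samples is therefore not settled, and the main fit does not pair them. IgG RIP replicate 3 alone had another scan date in the file headers, from which it was taken to be on another slide. Signal over background limits Rab30, Magi1, Ntrk3 and Tspan7 mmu_circRNA_45337 and mmu_circRNA_004325, whose controls were partly or wholly near background.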
